A study of Mus musculus with 12 samples.

Results

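The genes described here code for proteins that carry lipids between and within cells: the apolipoproteins Apod, Apoe and Clu, the phospholipid transfer protein Pltp and the fatty acid binding proteins Fabp3, Fabp5 and Fabp7. They were chosen by name, as the secreted and intracellular lipid carriers of the brain, with earlier results of these data known. Each was read from the probe sets that the platform annotation pairs with that gene alone. All 7 were measured, out of 17656 measured genes, on 9 probe sets. Where a gene had 2 probe sets, as Fabp3 and Fabp5 did, the one that was brighter over all arrays stood for it.

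Expression was measured in the medial prefrontal cortex (mPFC) of 6 male wild type C57BL/6 mice after chronic social defeat (CSD) and of 6 homecage (HC) mice of the same strain, with 1 array per mouse. A CSD mouse lived beside an aggressive male of the CD-1 strain, separated from it by a partition with holes. It was exposed to that male directly for 5 min a day over 14 days, whereas HC mice were housed in groups. Before sampling, both groups took a light/dark test and a social interaction test. The study used these tests as inclusion criteria for the stressed mice. Brains were taken 24 h after the last defeat and flushed with saline, the mPFC was cut out with a white matter tract (the forceps minor) as its border, and 200 ng of RNA per mouse was labelled. Expression is given as log2 values, so that a difference of 1 is a doubling, and the number after a group name is the number of the mouse in the labels.

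Lipids do not dissolve in water and move between brain cells on lipoprotein particles, which are built around apolipoproteins, above all ApoE and clusterin from astrocytes. Phospholipid transfer protein shifts phospholipids between such particles. Apolipoprotein D is instead a lipocalin, a small cup-shaped carrier of single lipid molecules, and is made in the brain by oligodendrocytes and astrocytes among others. Inside cells, fatty acids are carried by small binding proteins, of which the brain has a form found mainly in neurons (Fabp3), a broadly expressed form (Fabp5) and a form of radial glia and astrocytes (Fabp7).

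Pltp and Apod had the lowest values in CSD mice relative to HC mice, at log2 fold changes of -0.33 and -0.28. An exact permutation test of the difference of means gave p = 0.00433 for Pltp. For Apod the exact permutation p was 0.0498, and it changed with single mice. The difference of Pltp was larger than the SD of either group, whereas that of Apod was smaller than the SD of CSD mice. Apoe, Clu, Fabp3, Fabp5 and Fabp7 differed by less than the SD of either group, with fold changes between -0.10 and -0.02. In tissue pieces such as these, fewer cells of a type and less RNA per cell cannot be told apart. After adjustment over all 29838 probe sets, none of the 7 genes was called by limma, which asked for an adjusted p below 0.05 together with a 1.2-fold difference, and the same rule called 0 probe sets of any kind, or 0% of those tested. Without adjustment, 406 probe sets met both limits.

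With p left unadjusted and the fold limit kept, 2 of the 7 genes were lower in CSD mice, Pltp and Apod, where 0.600% of all measured genes (106 genes) were. None of the 7 was higher, where 0.0793% of measured genes (14 genes) were. Since the 7 genes were chosen with earlier results of these data known, these counts are descriptions and no independent evidence. The mean was lower in CSD mice for 7 of the 7 genes, and for 57.1% of all measured genes, with a median log2 fold change of -0.07 over the 7 and of -0.01 over all measured genes.

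**Figure D1:**
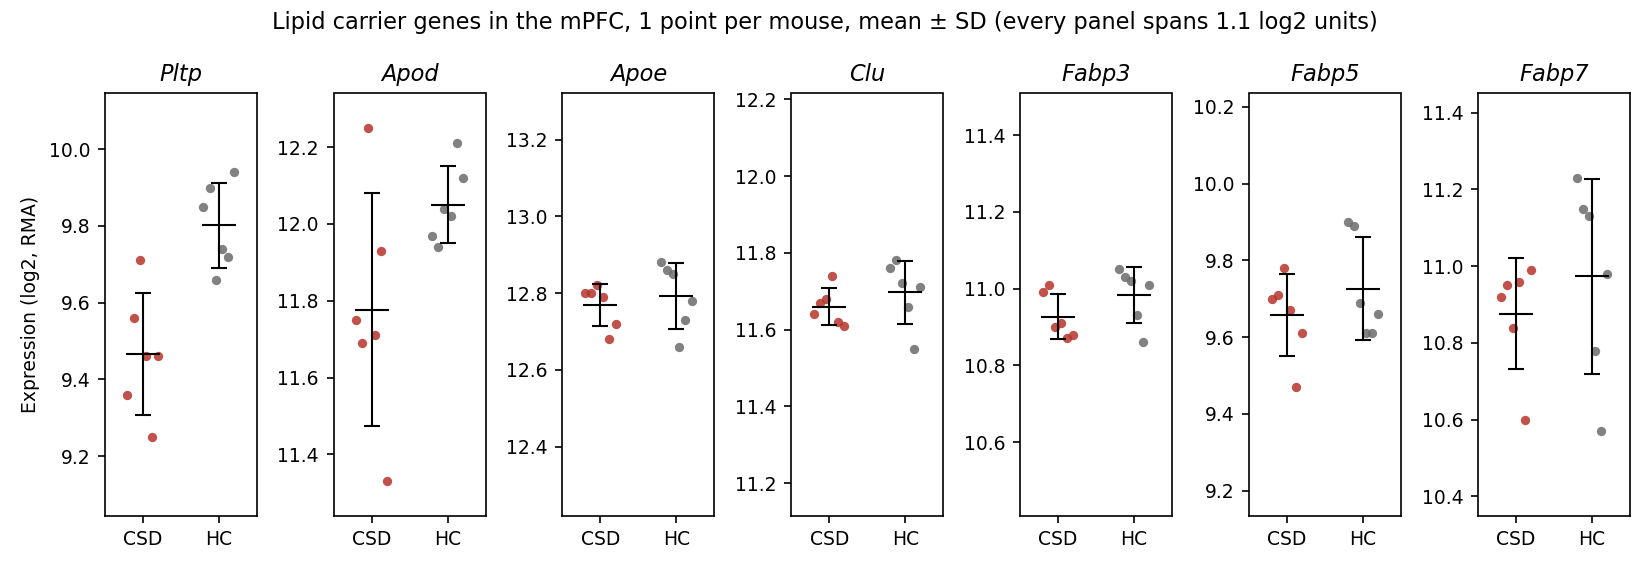
Expression of the 7 lipid carrier genes (log2 values on the vertical axis, each panel with the same span) in CSD mice (red) and HC mice (grey), 1 point per mouse, with the mean and SD. For Pltp and Apod 5 of the 6 CSD points lie under the lowest HC point, and in the other 5 panels the groups overlap.

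Pltp (Entrez gene 18830, chr2:164839518-164857708 on the minus strand in the GRCm38.p6 build of the mouse genome) was the lipid carrier gene with the largest difference. Its log2 value was 9.36 in CSD 2, 9.56 in CSD 6, 9.71 in CSD 7, 9.46 in CSD 8, 9.25 in CSD 9 and 9.46 in CSD 10. In the homecage group it was 9.85 in HC 1, 9.90 in HC 2, 9.66 in HC 3, 9.74 in HC 4, 9.72 in HC 5 and 9.94 in HC 6. Every CSD mouse but CSD 7 was below the lowest HC mouse, HC 3, and CSD 7 itself was below the HC mean.

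The mean of Pltp was 9.47 ± 0.16 in CSD mice and 9.80 ± 0.11 in HC mice (SD, n = 6 each), a log2 fold change of -0.33 with a standard error of 0.08 and a 95% interval of -0.50 to -0.17. On the linear scale its level in CSD mice was 0.793 of that in HC mice (95% interval 0.708 to 0.888). The exact permutation test of the difference (two-sided, over the 924 ways to divide 12 mice into 6 and 6) gave p = 0.00433, where the smallest p it can give is 0.00216. The limma fit across all probe sets gave an unadjusted p = 0.000702 and an adjusted p = 0.188, and Pltp ranked 89 of the measured genes by p. Pltp is among the genes that the study itself lists from these arrays, so that its place among the 7 is no independent evidence of a difference.

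Apod (Entrez gene 11815, chr16:31296192-31314808, minus strand) had a log2 value of 11.75 in CSD 2, 11.69 in CSD 6, 12.25 in CSD 7, 11.71 in CSD 8, 11.93 in CSD 9 and 11.33 in CSD 10. In the homecage group its log2 value was 11.97 in HC 1, 11.94 in HC 2, 12.04 in HC 3, 12.02 in HC 4, 12.21 in HC 5 and 12.12 in HC 6. CSD mice spread over 0.917 log2 units and HC mice over 0.265. All but 1 of the CSD mice were below the lowest HC mouse, and CSD 7 was above the highest.

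For Apod the mean was 11.77 ± 0.30 in CSD mice and 12.05 ± 0.10 in HC mice (SD, n = 6 each), a log2 fold change of -0.28 with a standard error of 0.12 and a 95% interval of -0.53 to -0.02. Its level on the linear scale was 0.825 of that in HC mice (95% interval 0.691 to 0.985). The exact permutation p was 0.0498 and the limma p was 0.0353, or 0.551 after adjustment.

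Single mice moved Apod more than Pltp. Leaving out each mouse in turn gave differences of means of -0.38 to -0.29 for Pltp, with exact permutation p-values of 0.00216 to 0.00866, all 12 under 0.05. For Apod the differences ran from -0.37 to -0.19 and the exact permutation p was under 0.05 in 2 of the 12 cases, without CSD 7 and without CSD 9 (p = 0.0476), and between 0.0606 and 0.108 in the other 10. Without CSD 7, the mouse with the highest Apod value, every remaining CSD mouse was below every HC mouse (difference -0.37, exact permutation p = 0.00216, the smallest possible). Without CSD 10, the mouse with the lowest Apod value, the difference was -0.19 (exact permutation p = 0.104). HC 2 and HC 6 correlated least with the other arrays of their group (median r of 0.992 and 0.991), and without both of them the log2 fold change was -0.27 for Pltp and -0.29 for Apod (limma, adjusted p = 0.359 and 0.602).

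**Figure D2:**
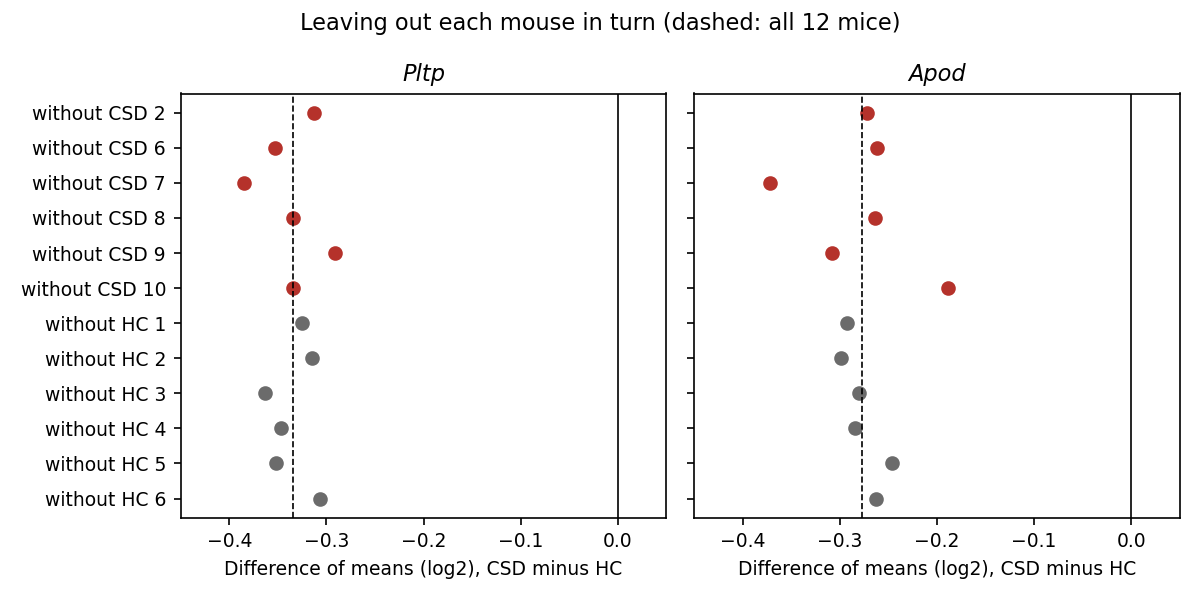
Difference of mean log2 values, CSD minus HC (horizontal axis), of Pltp (left) and Apod (right) after leaving out 1 mouse (vertical axis), with CSD mice left out in red and HC mice in grey. The dashed line is the difference over all 12 mice, and Apod lies farthest from it without CSD 10 and without CSD 7.

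The promoters of these 2 genes are printed because they were the lipid carrier genes with the largest differences and both were lower in CSD mice. Each runs from 250 bases before to 50 after the start site, 5′ to 3′ along the gene, in the RefSeq annotation of GRCm38.p6, and the capitals mark the motifs found. Bases are counted from the start site, which is base 1, and negative numbers lie before it. Of the 7 genes, 5 (Pltp, Apod, Apoe, Fabp3 and Fabp7) were matched in the promoter table used. Both strands were searched for AACAAT, a core bound by SOX factors, the family of Sox9 and Sox10. General promoter motifs were searched as TATAAA for the sequence bound by TATA-binding protein, as CCAAT for that of the factor NF-Y and as GGGCGG for that of Sp1. The recognition motif of nuclear receptors was searched as AGGTCA. Searched motifs did not overlap in either window.

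Pltp, chr2:164857659-164857958, minus strand: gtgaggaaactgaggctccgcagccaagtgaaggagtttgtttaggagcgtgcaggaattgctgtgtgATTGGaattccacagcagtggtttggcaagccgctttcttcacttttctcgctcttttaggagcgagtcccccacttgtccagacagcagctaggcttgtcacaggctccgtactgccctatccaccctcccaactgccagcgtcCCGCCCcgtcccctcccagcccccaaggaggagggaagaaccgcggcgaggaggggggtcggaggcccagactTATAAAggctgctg

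Apod, chr16:31314759-31315058, minus strand: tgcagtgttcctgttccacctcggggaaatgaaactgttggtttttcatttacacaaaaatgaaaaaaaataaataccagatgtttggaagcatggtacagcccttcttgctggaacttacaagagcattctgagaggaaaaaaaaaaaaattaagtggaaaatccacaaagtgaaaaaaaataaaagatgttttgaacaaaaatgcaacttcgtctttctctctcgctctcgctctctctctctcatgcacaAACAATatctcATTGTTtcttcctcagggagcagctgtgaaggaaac

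The Pltp window held CCAAT on the opposite strand, from base -182, GGGCGG on the opposite strand, from base -37, and TATAAA on the gene's own strand, from base 37. The Apod window held AACAAT on its own strand, from base 4, and again on the opposite strand, from base 15, both after the start site, and none of the other motifs. Of all 32851 promoter windows in the table, 10.7% held AACAAT at least once and 1.11% at least 2 times, whereas 37.4% held CCAAT, 35.7% GGGCGG, 13.6% TATAAA and 16.3% AGGTCA. The windows also differed in base composition: G and C made up 59.0% of that of Pltp and 37.3% of that of Apod. The median of all windows was 52.7%, and 6.19% of windows had a lower share than that of Apod. These matches describe the letters of the windows. Binding was not measured.

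**Figure D3:**
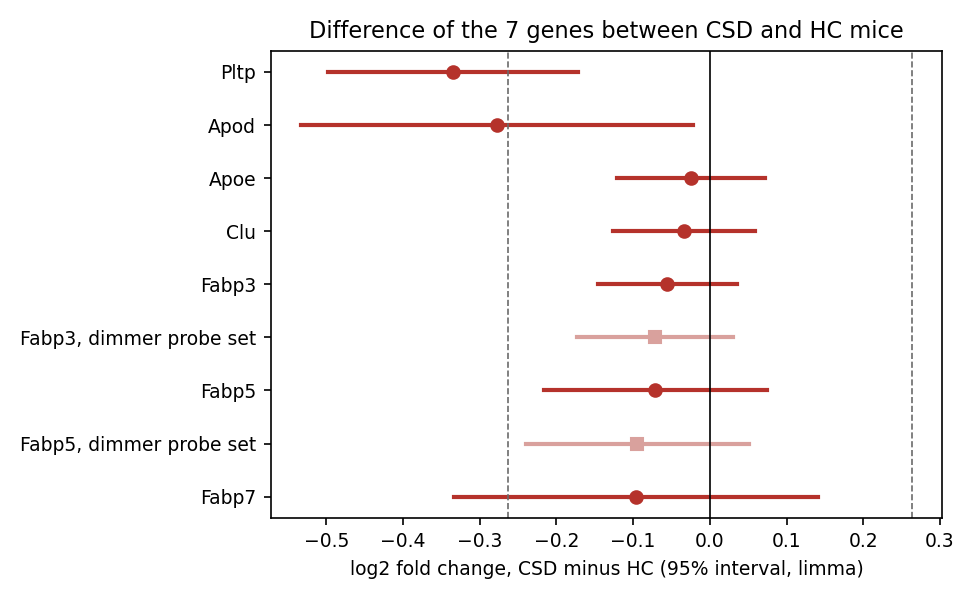
Log2 fold change, CSD minus HC (horizontal axis), with its 95% interval from limma for the 7 genes and, as paler squares, the dimmer probe sets of Fabp3 and Fabp5. Dashed lines mark a fold change of 1.2, and the intervals of Pltp and Apod alone lie wholly below 0.

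Apoe, the main apolipoprotein of the brain's own lipoproteins (Entrez gene 11816, chr7:19696244-19701310), was nearly level between the groups. Its lowest, median and highest log2 values were 12.68, 12.79 and 12.82 in CSD mice, against 12.66, 12.81 and 12.88 in HC mice. The CSD values lay wholly within the range of the HC values. The mean was 12.77 ± 0.05 in CSD mice and 12.79 ± 0.09 in HC mice (SD, n = 6 each), a log2 fold change of -0.02 with a 95% interval of -0.12 to 0.07 (exact permutation p = 0.556, limma adjusted p = 0.926).

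Clu, which codes for clusterin, a secreted chaperone also named apolipoprotein J (Entrez gene 12759, chr14:65968483-65981548), had values of 11.61, 11.66 and 11.74 (lowest, median and highest) in CSD mice, against 11.55, 11.72 and 11.78 in HC mice. Here too every CSD value was inside the HC range, although 5 of the 6 CSD mice were below the HC mean. The means were 11.66 ± 0.05 in CSD mice and 11.70 ± 0.08 in HC mice (SD, n = 6 each), with a log2 fold change of -0.03 and a 95% interval of -0.13 to 0.06 (exact permutation p = 0.413, limma adjusted p = 0.887). The intervals of Apoe and Clu end above the fold changes of Pltp and Apod, but the difference between genes was not tested.

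Of the intracellular carriers, Fabp3 (Entrez gene 14077, chr4:130308738-130315463) was measured by 2 probe sets. On the brighter, the lowest, median and highest values were 10.87, 10.91 and 11.01 in CSD mice, against 10.86, 11.01 and 11.05 in HC mice. Its mean was 10.93 ± 0.06 in CSD mice and 10.98 ± 0.07 in HC mice (SD, n = 6 each), a log2 fold change of -0.06 with a 95% interval of -0.15 to 0.03 (exact permutation p = 0.154, limma adjusted p = 0.797). The dimmer probe set gave -0.07 with an interval of -0.17 to 0.03 (exact permutation p = 0.139). Without HC 5, the lowest HC mouse, the difference on the brighter probe set was -0.08 (exact permutation p = 0.0368). RefSeq lists a pseudogene, Fabp3-ps1, on chromosome 10, so that the share of signal from each copy is uncertain.

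Fabp5, which carries fatty acids and retinoic acid (Entrez gene 16592, chr3:10012585-10016610), also had 2 probe sets. On the brighter, values were 9.47, 9.68 and 9.78 (lowest, median and highest) in CSD mice, against 9.61, 9.68 and 9.90 in HC mice. The medians were nearly equal, and HC 1 and HC 2, at 9.90 and 9.89, were above every CSD mouse. The mean was 9.66 ± 0.11 in CSD mice and 9.73 ± 0.13 in HC mice (SD, n = 6 each), a log2 fold change of -0.07 with a 95% interval of -0.22 to 0.07 (exact permutation p = 0.316, limma adjusted p = 0.845). The dimmer probe set gave -0.09 with an interval of -0.24 to 0.05 (exact permutation p = 0.221). A Fabp5-like pseudogene, Fabp5l2, is annotated in RefSeq and limits this gene in the same way.

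Fabp7, the brain type, which binds docosahexaenoic acid (Entrez gene 12140, chr10:57784923-57788450), varied most among the HC mice of the 3 binding proteins. Its lowest, median and highest values were 10.60, 10.94 and 10.99 in CSD mice, against 10.57, 11.05 and 11.23 in HC mice. Of the HC mice, 3 (HC 1, HC 2 and HC 3, at 11.23, 11.15 and 11.13) were above every CSD mouse and HC 5 was below all of them. The mean was 10.88 ± 0.15 in CSD mice and 10.97 ± 0.25 in HC mice (SD, n = 6 each), a log2 fold change of -0.10 with a 95% interval of -0.33 to 0.14 (exact permutation p = 0.439, limma adjusted p = 0.873). This interval is wide enough to hold the fold change of Apod. Leaving out single mice moved these small differences by over 1.5 times: for Fabp7 to -0.18 without HC 5 and -0.04 without CSD 9 (exact permutation p = 0.106 and 0.740). The differences over the 12 such cases ran from -0.10 to -0.03 for Fabp5, from -0.05 to -0.01 for Apoe and from -0.06 to -0.02 for Clu, with exact permutation p-values of 0.0606 to 0.868 over the 3 genes.

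None of the 7 genes had every CSD mouse below every HC mouse, which 0.935% of all measured genes had.

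Among mice of the same group, several of the genes shared their high and low mice. CSD 7 had the highest CSD value of 4 genes (Pltp, Apod, Apoe and Fabp5), and CSD 9 the lowest of 5 (Pltp, Apoe, Fabp3, Fabp5 and Fabp7). HC 1 had the highest HC value of Apoe, Fabp3, Fabp5 and Fabp7. HC 5 had the lowest of Clu, Fabp3, Fabp5 and Fabp7 but the highest of Apod.

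Correlations between the 7 genes were computed within each group over its 6 mice, 42 in all, after these shared mice had been seen. Leaving Apod aside, the 15 pairs of the other 6 genes correlated positively both in CSD mice and in HC mice, and the pairs share arrays and so are not independent. By Pearson r, 1 pair passed in each group after Benjamini-Hochberg adjustment. In CSD mice this was Apoe with Fabp5 (Pearson r = 0.952, exact permutation p = 0.00139, adjusted 0.0292, Spearman rho = 1.0, exact permutation p = 0.00278). Without the 2 mice farthest from the median, r was 1.0 over the 4 left, whose Apoe values spanned only 12.79 to 12.82. In HC mice the pair was Fabp3 with Fabp7 (r = 0.984, exact permutation p = 0.00139, adjusted 0.0292, rho = 1.0, exact permutation p = 0.00278). Here r was 0.953 over the 4 mice left without the 2 farthest. By Spearman rho the same pairs passed, and in HC mice also Fabp3 with Fabp5 and Fabp5 with Fabp7 (rho = 1.0 each, exact permutation p = 0.00278, adjusted 0.0292), whose Pearson r of 0.747 and 0.811 did not pass (adjusted 0.226 each). The same pairs had r = 0.840 for Apoe with Fabp5 in HC mice and r = 0.458 for Fabp3 with Fabp7 in CSD mice, and the difference between groups was not tested. In CSD mice Apod had a positive r with Apoe (0.345), Pltp (0.331), Clu (0.273) and Fabp5 (0.253) and a negative one with Fabp3 (-0.109) and Fabp7 (-0.565), whereas in HC mice its r with the other 6 genes was between -0.849 and -0.239. None of these passed adjustment, and the difference between groups was not tested.

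**Figure D4:**
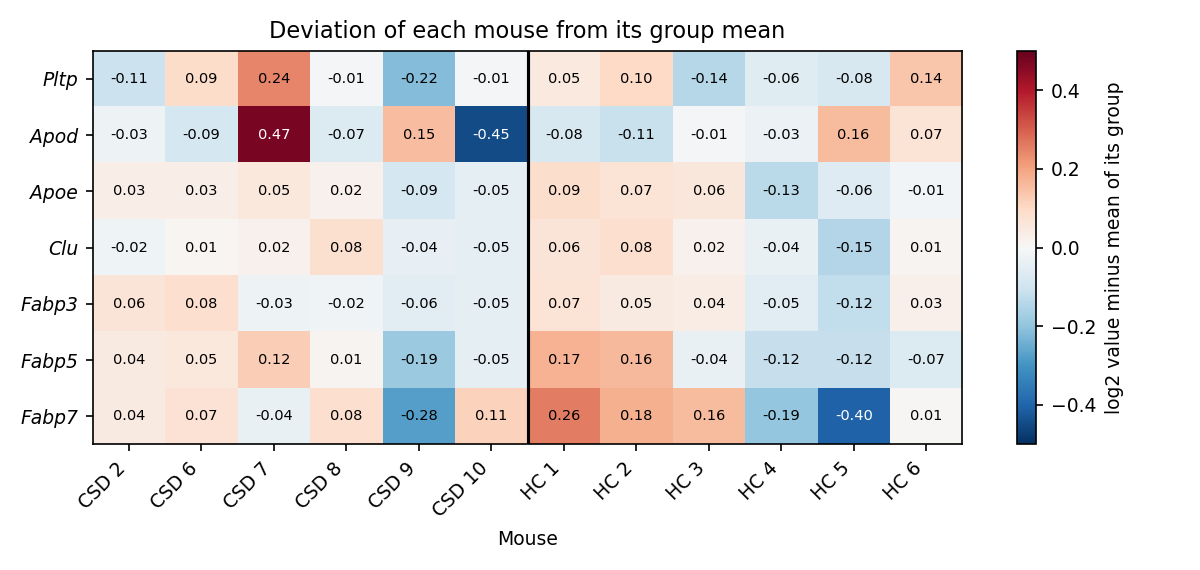
Difference of each mouse's log2 value (colour and printed number) from the mean of its own group, for the 7 genes (rows) in the 6 CSD and 6 HC mice (columns). CSD 9 and HC 5 are low in most rows and HC 1 is high in most, while the row of Apod is dominated by CSD 7 and CSD 10.

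The genes whose pattern over the 12 arrays was most like each lipid carrier gene were found by Pearson r after subtracting each group's mean, among 14307 genes, and are a description with no test. Nearest to Pltp were Pkig (r = 0.902), Kif3b (0.899) and Tmem135 (0.894), and nearest to Apod were Gli3 (0.860), Wdr76 (0.859) and Pcdhb4 (0.850). Apoe was followed most closely by Ptn (0.954), Slc7a11 (0.941) and Acat1 (0.930), and Clu by Slc25a18 (0.970), Jagn1 (0.969) and Echs1 (0.950). For Fabp3 the nearest were Rpl10 (0.899), Rpsa (0.896) and Cops6 (0.888), for Fabp5 they were Rps21 (0.965), Psmb6 (0.935) and Cox6a1 (0.922), and for Fabp7 Pnck (0.940), Sdhb (0.920) and Myl6 (0.915). The neighbours of Pltp did not share its difference between groups: Pkig, Kif3b and Tmem135 had log2 fold changes of -0.02, -0.03 and 0.01.

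Markers of mature oligodendrocytes, a cell type in which Apod is expressed, were lower in CSD mice together with Pltp and Apod. The 9 markers used met both limits with p left unadjusted, all of them lower, and none was called after adjustment, with a median log2 fold change of -0.58. Their mean level per mouse ran between 9.29 and 9.83 in CSD mice and between 9.91 and 10.45 in HC mice, with no overlap. The study itself reports Mog, Ermn, Mag, Mobp, Cldn11, Cnp, Mbp, Ugt8a and Aspa as reduced in these same arrays. The marker list was also chosen with earlier results of these data known. That all markers passed without adjustment, and that their means did not overlap, is therefore a description and no independent evidence. Mog, the myelin oligodendrocyte glycoprotein, had a log2 fold change of -0.84 ± 0.14 and Ermn, the cytoskeletal protein ermin, of -0.82 ± 0.15 (standard error, limma, adjusted p = 0.0986 and 0.132). Of the others, the myelin protein genes Mag, Mobp, Cldn11, Cnp and Mbp had log2 fold changes of -0.71, -0.64, -0.57, -0.58 and -0.32, and Aspa and Ugt8a, enzymes of N-acetylaspartate breakdown and of galactosylceramide synthesis, had -0.58 and -0.49.

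Within a group, the lipid carrier genes did not follow the oligodendrocyte markers in a way that passed adjustment. Over 28 relations (7 genes, 2 marker lists, 2 groups, exact permutation over the 6 mice of a group), the smallest adjusted p was 0.377 for Pearson r and 0.360 for Spearman rho. In CSD mice r with the oligodendrocyte markers lay between -0.003 and 0.73, positive for 6 of the 7 genes, and in HC mice between -0.90 and 0.61, positive for Apod alone. CSD 7, the mouse with the highest Pltp and Apod values of its group, had an oligodendrocyte marker mean of 9.78, and CSD 10, with the lowest Apod value, had the lowest, 9.29. Other mice did not follow this order: CSD 6 had the highest marker mean of its group, 9.83, but the second lowest Apod value, and CSD 9, with the lowest Pltp but the second highest Apod value, had 9.46. The part of the oligodendrocyte markers in the differences of Pltp and Apod was not tested.

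Astrocyte markers, which stand for the main source of Apoe, Clu and Fabp7, were lower in mean for 8 of 10 genes, 0 of them past the unadjusted rule with its fold limit, with a median of -0.03. Their mean level per mouse was 10.55 to 10.64 in CSD mice, inside the 10.51 to 10.73 of HC mice. The calcium-binding protein gene S100b and the water channel gene Aqp4 had log2 fold changes of -0.18 each (limma, adjusted p = 0.383 and 0.513).

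Other cell types were measured by their own markers. Microglia had 7 of 8 markers lower in mean (median -0.05), with the smallest p for P2ry12 (-0.14) and C1qc (-0.13). Neurons had 6 of 7 lower (median -0.04), with the smallest p for Rbfox3 (-0.05) and Tubb3 (-0.06). The mean neuron marker level was 11.87 to 11.97 in CSD mice and 11.93 to 12.02 in HC mice, far above the noise level of 5.75. Oligodendrocyte precursors had 3 of 5 lower (median -0.07), with the smallest p for Olig1 (-0.11) and Gpr17 (-0.13). Endothelial cells had 4 of 6 lower (median -0.05), and the angiopoietin receptor gene Tek (-0.21, adjusted p = 0.313) did not overlap between the groups, with Pecam1 (0.07) next by p. Pericytes and meningeal fibroblasts had 3 of 7 lower (median 0.04), with Col1a1 at 0.09 and Col1a2 at 0.09, and for red blood cells both measured markers, Alas2 (0.14) and Slc4a1 (0.06), were higher in mean. Choroid plexus markers were lower in mean for 4 of 6 (median -0.07), with 3 of the 6 near the noise level. Among them the smallest p was that of Otx2 (-0.22), followed by Clic6 (-0.11). None of the genes in these lists passed the unadjusted rule with its fold limit.

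The rest of lipid handling was followed through 9 lists with 93 genes, of which 78 were measured, 53 with a lower and 25 with a higher mean in CSD mice and a median log2 fold change of -0.02. An unadjusted p under 0.05 was reached by 6 of the 78 (7.69%), and by 8.41% of all measured genes. With the fold limit, 1 of the 78 was lower, where 0.600% of all measured genes were, and 1 was higher, where 0.0793% were. These lists too were chosen with earlier results of these data known, so the counts are descriptions and no independent evidence. Over all measured genes, 57.1% had a lower mean, with a median log2 fold change of -0.01.

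The gene that was lower was Gltp, the glycolipid transfer protein, which moves glycosphingolipids such as the galactosylceramide of myelin between membranes. Its log2 value was 9.11 to 9.25 in CSD mice and 9.40 to 9.56 in HC mice, with no overlap, and its log2 fold change was -0.29 with a standard error of 0.04 (exact permutation p = 0.00216, the smallest possible, limma adjusted p = 0.0673). The gene that was higher was Lcn2, like Apod a lipocalin, a siderophore-binding protein of inflammation. It was between 6.09 and 9.03 in CSD mice and between 5.99 and 6.52 in HC mice, a log2 fold change of 1.28 with a standard error of 0.44 (exact permutation p = 0.0411, limma adjusted p = 0.432). The groups overlapped, and the CSD mice ranged from the HC level to far above it. Both genes, Gltp and Lcn2, are among those that the study itself lists from these arrays. Their p-values here are therefore a description and no independent evidence of a difference. The other measured lipocalins, with Rbp4 (-0.03) next by p, did not pass.

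By role, the other soluble carriers, a list that includes Gltp, were lower in mean for 11 of 12 genes, with a median of -0.08. Gm2a, the activator protein of ganglioside breakdown, did not overlap between the groups, at 10.69 to 10.76 in CSD mice and 10.78 to 10.89 in HC mice (log2 fold change -0.13, limma adjusted p = 0.235). The sterol carriers Osbp (-0.11) and Stard4 (-0.13), named after their values were seen, reached an unadjusted p under 0.05 as well. The other apolipoproteins were lower in mean for 8 of 11, with 5 of the 11 near the noise level. Among them the smallest p was that of Apoc1 (-0.10), followed by Apom (-0.06). The other intracellular lipid-binding proteins were lower in mean for 3 of 6, again with 5 near the noise level, and the genes with the smallest p, Fabp12 (0.05) and Crabp1 (0.04), were among those with a higher mean.

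Lipoprotein receptors and other genes listed with them were lower in mean for 9 of 13. The smallest p belonged to Lrp4, of the LDL receptor family (-0.11), followed by Bsg, the membrane protein basigin (-0.04). The lipid exporters were lower for 5 of 7, among them Abca2, a transporter abundant in oligodendrocytes (-0.11, limma adjusted p = 0.468), and Abcg1, which loads cholesterol onto lipoproteins (-0.08). Genes of lipoprotein remodelling were lower for 3 of 7, with Lcat, which esterifies cholesterol on particles, at -0.12 and the lipase Lpl at 0.06. Fatty acid uptake and activation had 5 of 8 lower, with the smallest p for the acyl-CoA synthetase Acsbg1 (-0.09) and the transporter Slc27a4 (-0.06). The lipid-sensing nuclear receptors had 6 of 9 lower, with the smallest p for Rara (-0.14) and Rxrb (-0.06). No gene of these 5 lists passed the unadjusted rule with its fold limit.

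**Figure D5:**
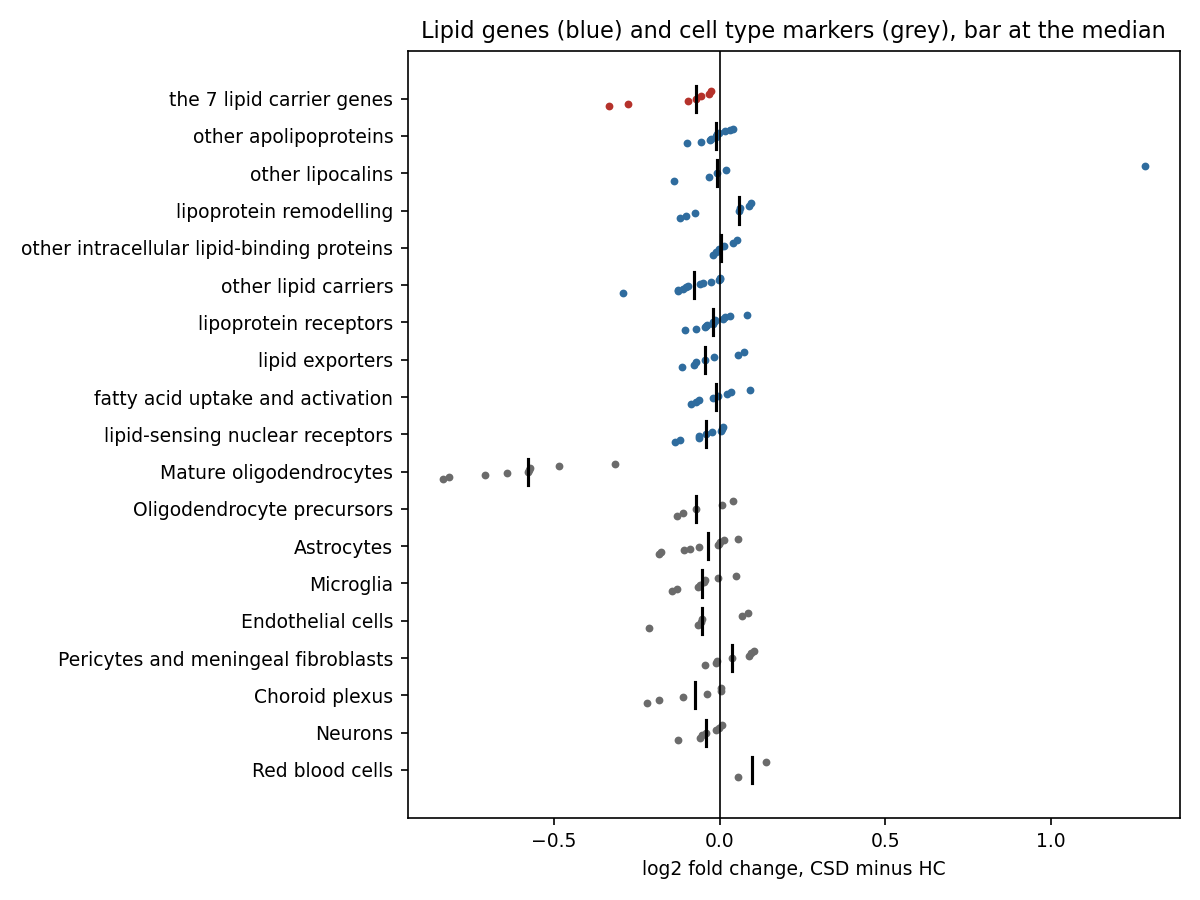
Log2 fold change, CSD minus HC (horizontal axis), of each measured gene (points) of the lipid lists (blue) and cell type marker lists (grey) below the 7 lipid carrier genes (red), with a bar at each list's median. The oligodendrocyte markers, with a median of -0.58, are the list farthest from 0, and the blue point at 1.28 is Lcn2.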

How the data were processed

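RNA from the mPFC of 6 CSD and 6 HC mice was hybridized to Affymetrix Mouse Gene 1.0 ST arrays, 1 per mouse. The values deposited by the authors are on the log2 scale and come from RMA (background subtraction, normalization between arrays, summary over the probes of a probe set) as run in the Affymetrix Expression Console. Its version was not given in the sources used here, nor was a genome build. An array has no read depth, so the number of mice limits the precision, and array medians ran from 7.50 to 7.69. The mice are separate animals.

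Of 35556 probe sets, the 29838 with at least 1 value above the noise level were kept, and values below it were raised to it (4.67% of values). The methods give no noise value, and 5.75, which is the 20th percentile of the deposited values, stood for it. CSD was set against HC by limma's moderated linear model (version 3.58.1, R 4.3.3, two-sided, no covariate, Benjamini-Hochberg over all probe sets kept). A call needed an adjusted p below 0.05 together with a 1.2-fold difference. Single genes were also tested by an exact permutation test of the difference of means. The fit was tested on simulated data with known differences before use.

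In the platform annotation of 2016, 21789 probe sets name 1 gene, 1621 name several and 12146 name none. Genes were read from probe sets with 1 gene, the brightest over the 12 arrays. The genome positions come from the RefSeq table of GRCm38.p6 and not from the arrays. Named in the text are the 7 genes, for each the 3 measured genes most like it (at least 1 log2 unit above the noise level), and in each list the 2 genes with the smallest p and any that passed with the fold limit. The members and lists were chosen with earlier results of these data known. Alternatives were the methods' Welch test, other filters and floors, other scalings, other estimates of the spread, array weights, the replicate block and leaving out each mouse. Other tests and the figures used Python 3.11.15 with scipy 1.17.1 and matplotlib 3.10.9. In situ hybridization and staining were not analysed here.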

Additional observations from a re-analysis of the deposited data

Results flagged for a closer look

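Each of the 7 genes was examined in both groups (14 sets of 6 mice) for a single mouse far from the rest, and in 0 of them did the gap of the highest or lowest mouse to its neighbour exceed Dixon's 95% limit for its share of the range. Chance alone passes it in about 1 set of 20.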

How the results depend on the processing

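For each of the 7 genes, the direction of the difference and its side of the adjusted threshold were kept under all 24 alternatives run. Log2 fold changes ranged from -0.47 to -0.27 for Pltp (adjusted p 0.104 to 1) and from -0.37 to -0.19 for Apod (adjusted p 0.271 to 1). The -0.47 of Pltp and the highest adjusted p of both genes came from the replicate block. In that fit only the mice numbered 2 and 6 in each group inform the difference. An unadjusted p under 0.05 was reached in 24 of the 24 alternatives for Pltp and in 13 for Apod. The number of the 7 genes lower at an unadjusted p with the fold limit was 2, against 1 with the methods' Welch test, with no filter, with the replicate block and without HC 2 and HC 6 together (added after seeing the data), and 1 to 2 when each mouse was left out. Over all probe sets, called ones numbered 0, against 21 over probe sets with 1 gene only, 1 after quantile normalization and 14 when limma was fitted robustly with a mean-variance trend. Those lower at an unadjusted p numbered 185, against 113 over probe sets with 1 gene only, 451 with the replicate block and 1517 with no fold limit. Those higher numbered 221, against 14 over probe sets with 1 gene only and 999 with no fold limit. Centring the arrays on their medians gave 172 higher and 218 lower. Fewer probe sets were tested over probe sets with 1 gene only. With no fold limit the counts are higher by construction, since a condition was dropped. For the others the cause was not tested. The groups share replicate numbers 2 and 6, whose deviations correlated at -0.21 and -0.04. The labels do not say whether these mice share more than a number. Values near the noise level, as in several apolipoproteins, limit what could be seen.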
